A study of Mus musculus with 14 samples.

Results

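Treg cells of the gut meet ligands from the diet, the microbiota and the host, and 9 genes of the receptors that sense such ligands were examined in 14 RNA-seq libraries of intestinal Tregs. They are Ahr, the aryl hydrocarbon receptor, with its feedback genes Ahrr and Tiparp and its classical target Nqo1; the retinoic acid receptors Rara and Rarg and their partner Rxra; the vitamin D receptor Vdr; and the fatty acid receptor Pparg. The members were chosen by name, with earlier results of these data known but with no threshold on their values. Each of the 9 symbols matched 1 Ensembl gene ID in both count tables, out of 55487 IDs listed for the inducible line and 53801 for Foxp3-YFP-cre mice. The organ from which Tregs came was compared first, and loss of Junb, an AP-1 transcription factor, second.

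The libraries fall into 6 groups of young adult mice carrying a floxed (F) Junb allele. Tregs of Peyer's patches (PP), sorted as CD4+Foxp3(YFP)+CD62L- cells, came from male Junb F/+ Foxp3-YFP-cre mice (HET, n = 2) and male Junb F/F Foxp3-YFP-cre mice (KO, n = 2), which received no tamoxifen and delete Junb as soon as a cell turns on Foxp3. The methods of the study record promiscuous germline deletion of Junb in this line. The other 10 libraries came from Foxp3-EGFP-cre-ERT2 Rosa26-tdTomato mice, in which Cre acts only after tamoxifen and marks the cell with tdTomato. Colon lamina propria (coLP) Tregs were sorted as TCRb+CD4+Foxp3(EGFP)+tdTomato+ cells from Junb F/+ (iHET, n = 3) and Junb F/F mice (iKO, n = 3), and CD25- PP Tregs by the same gate plus absence of CD25 from iHET (n = 2) and iKO mice (n = 2). All 10, the iHET controls included, were given 8 mg of tamoxifen by gavage 3 times, on days 0, 1 and 3, and were taken on day 7, so that the controls too had 1 Junb allele open to deletion. In these groups replicate 1 is male and the others are female, and the females are labelled as carrying the Cre allele on both chromosomes. The labels number the libraries without stating that each came from a separate mouse, while the methods count animals. Nor do they say whether coLP and CD25- PP libraries of the same number share a mouse, and the organ test treats them as separate. With unlike group sizes, males are a larger share of the CD25- PP than of the coLP libraries. The p-values measure the spread between these libraries.

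AhR is held in the cytosol by chaperones until a ligand, such as a tryptophan metabolite or a plant indole, releases it to the nucleus, where it pairs with ARNT and binds the DNA core GCGTG. Its targets include its own brakes: Ahrr competes for ARNT, and Tiparp attaches ADP-ribose to the receptor. Retinoic acid, made from vitamin A by gut dendritic and epithelial cells, the active form of vitamin D and fatty acids bind nuclear receptors (RAR, VDR and PPAR), which bind DNA paired with an RXR. In intestinal T cells AhR and retinoic acid are known for shaping homing and differentiation, and Pparg for Tregs of adipose tissue.

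Each library held between 26274861 and 35508709 counted reads. Levels are given as CPM, read counts scaled to library size and corrected by TMM, a trimmed mean of log ratios between libraries; before that correction 3 counts, the floor used here, correspond to between 0.0845 and 0.114 CPM. In each KO or iKO library Junb was below every HET or iHET library of its comparison, with means of 7616 ± 808 and 1011 ± 17.9 CPM in coLP iHET and iKO (SD, n = 3), 4865 ± 965 and 901 ± 14.3 in CD25- PP iHET and iKO (n = 2), and 5040.5 ± 407 and 583 ± 31.9 in PP HET and KO (n = 2). Summed over 8 genes of Treg and T cell identity, each library held at least 6114 CPM. The 10 libraries of the inducible line also held transcripts of other cells, in amounts that differed between the organs by list: 12 epithelial genes summed to 201 to 2098 CPM in coLP and 153 to 384 CPM in CD25- PP Tregs, 10 myeloid genes to 144 to 365 and 68.8 to 108 CPM, and 7 genes of stroma and endothelium to 183 to 982 and 109 to 167 CPM. The 8 genes of B and plasma cells summed to 113 to 207 and 84.2 to 120 CPM, and 6 genes of CD8 T cells and innate lymphocytes went the other way, at 9.08 to 19.5 and 23.4 to 59.9 CPM. No epithelial gene of the list was at 0 throughout a group, and of the myeloid list Fcgr1 was at 0 in all CD25- PP libraries. The 8 genes of dissociation and immediate early response summed to 10484 to 17746 CPM in coLP and 8016 to 12073 CPM in CD25- PP Tregs. Organ, the CD25- gate and the digestion, which used dispase in the colon only, change together in these libraries, so their parts cannot be told apart, and in bulk samples neither can fewer cells of a type and less RNA per cell.

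The genes with textbook AhR feedback were first looked at for the DNA core of their receptor. RefSeq promoter windows (GRCm38.p6, 250 bases before to 50 bases after the transcription start) were given for 8 of the 9 genes, 15 windows in all, and those of Tiparp, Ahrr and Nqo1 are printed because these genes serve as readouts of AhR. Capitals mark GCGTG on either strand (CACGC when it lies on the other strand). The windows lie at chr3:65528197-65528496 (plus strand), chr13:74292282-74292581 (minus) and chr8:107403156-107403455 (minus), and are written 5′ to 3′ along the gene.
Tiparp: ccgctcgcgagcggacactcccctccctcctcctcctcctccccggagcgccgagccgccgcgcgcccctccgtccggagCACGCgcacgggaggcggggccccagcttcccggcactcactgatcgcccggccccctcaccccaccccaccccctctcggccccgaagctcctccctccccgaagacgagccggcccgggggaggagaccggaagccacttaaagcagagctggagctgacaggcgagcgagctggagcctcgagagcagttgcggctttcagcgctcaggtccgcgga
Ahrr: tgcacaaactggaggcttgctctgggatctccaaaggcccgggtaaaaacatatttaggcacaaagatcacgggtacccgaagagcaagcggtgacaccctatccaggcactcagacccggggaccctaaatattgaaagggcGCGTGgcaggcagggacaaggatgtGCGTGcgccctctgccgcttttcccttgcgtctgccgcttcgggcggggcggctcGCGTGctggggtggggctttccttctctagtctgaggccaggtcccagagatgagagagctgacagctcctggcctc
Nqo1: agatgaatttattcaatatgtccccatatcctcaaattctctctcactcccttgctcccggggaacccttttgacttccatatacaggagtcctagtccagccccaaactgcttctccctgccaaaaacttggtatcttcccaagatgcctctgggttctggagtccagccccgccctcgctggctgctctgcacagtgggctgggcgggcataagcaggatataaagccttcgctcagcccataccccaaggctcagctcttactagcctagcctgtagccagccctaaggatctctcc
The Ahrr window held 3 copies of the core, that of Tiparp 1 copy and that of Nqo1 0 copies. The core is common, being found in 32.4% of 32851 promoter windows of the same length. On both strands, none of the 3 windows held TGANTCA, the AP-1 site (7.81% of all windows), TGACNNNGC, the core of the antioxidant response element (12.4%), or AGGTCA, the half-site of nuclear receptors (16.3%). These letters overlap GCGTG in none of the windows shown.

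Per length of merged exons (RPKM), Ahr was the most abundant of the 9 genes in each of the 6 groups and Ahrr the lowest in coLP Tregs. In coLP iHET Tregs the mean was 50.0 ± 12.7 RPKM for Ahr (SD, n = 3), 37.5 ± 7.10 for Tiparp and 35.5 ± 6.86 for Rara. A step down followed, to 8.90 ± 0.581 RPKM for Rxra, 7.31 ± 0.383 for Vdr, 4.50 ± 0.849 for Rarg, 3.57 ± 1.76 for Pparg, 2.80 ± 0.600 for Nqo1 and 0.846 ± 0.422 for Ahrr. Ahr and Tiparp, Tiparp and Rara, Rarg and Pparg, and Pparg and Nqo1 differed by less than the larger of their SDs. In CD25- PP iHET Tregs Vdr (10.8 ± 2.905 RPKM, n = 2) lay above Rarg (5.68 ± 2.52) and Rxra (4.79 ± 0.0970), and the mean of Pparg (0.316 ± 0.183) lay below that of Ahrr (0.491 ± 0.0306). Rarg and Rxra, and Pparg and Ahrr, differed by less than the larger of their SDs.

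**Figure D1:**
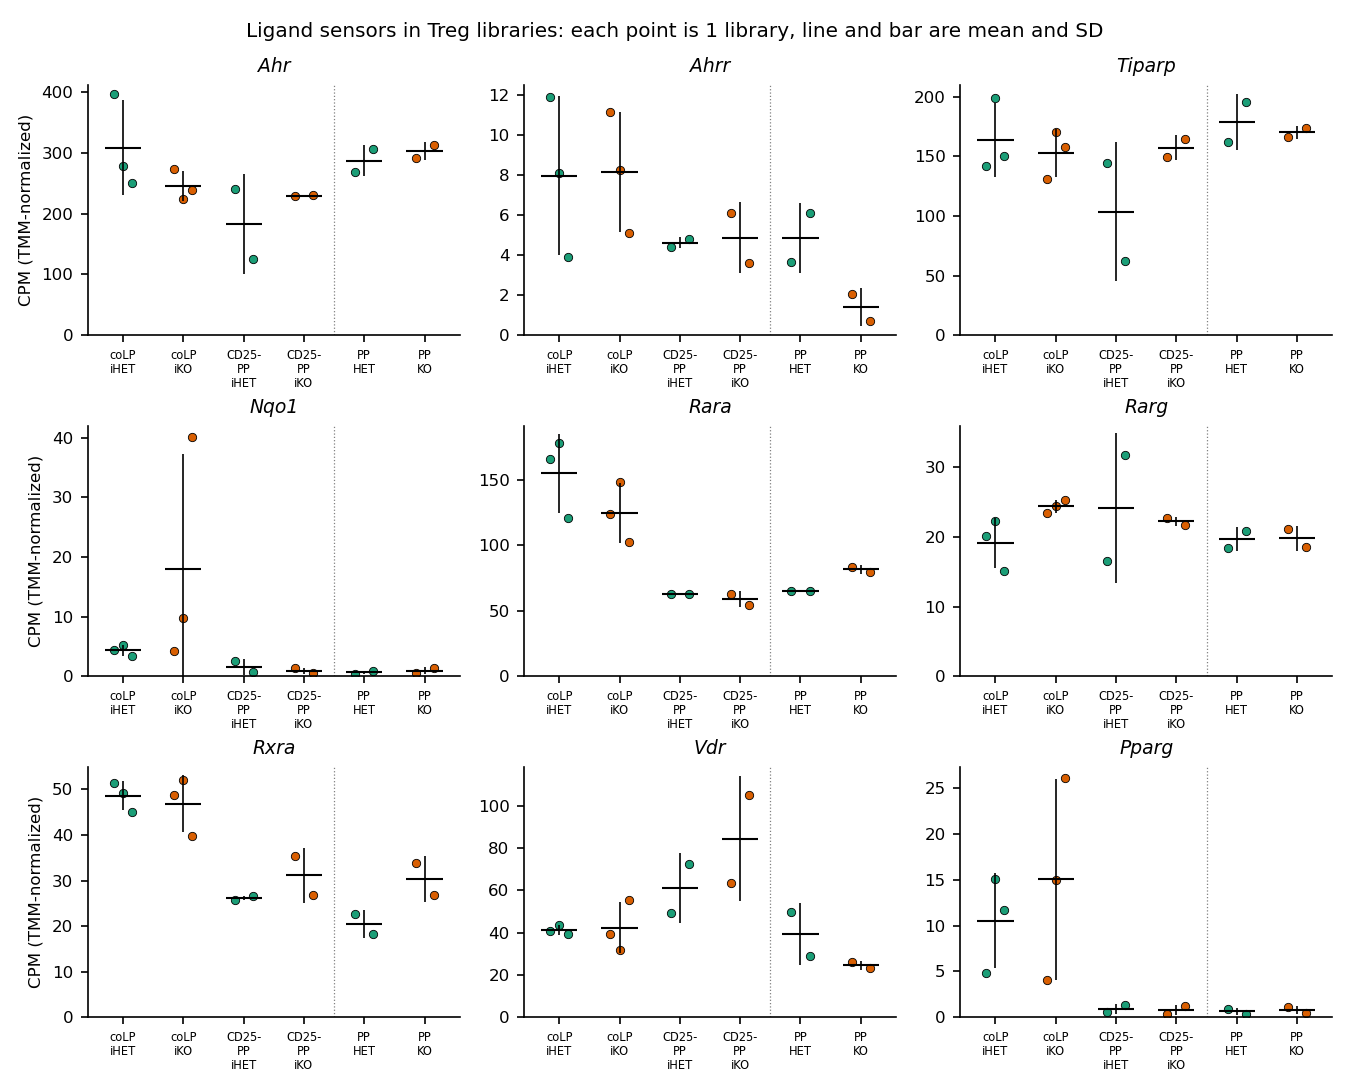
CPM (TMM-normalized, vertical axis from 0) of the 9 genes in the 14 libraries by group, with the mean and SD of each group; SD bars are cut at 0 and the dotted line separates the tables of the inducible and the Foxp3-YFP-cre line, which were normalized separately. All 6 coLP libraries lie above all 4 CD25- PP libraries for Nqo1, Rara, Rxra and Pparg, and coLP iKO replicate 3 stands alone for Nqo1 at 40.1 CPM.

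Colonic and CD25- PP Tregs differed in 5 of the 9 genes (edgeR's quasi-likelihood test, Benjamini-Hochberg false discovery rate, FDR, under 0.05): Pparg, Nqo1, Rara and Rxra were higher and Vdr was lower in the colon. The shares among all 18626 genes tested were 17.3% called, 10% higher and 7.29% lower in the colon. For 4 of the 9 genes the libraries of the organs did not overlap, against 16.4% of all genes. The median log2 fold change was 0.74 over the 9 genes and 0.000721 over all genes tested.

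Ahr itself was at 397, 278 and 250 CPM in coLP iHET and 273, 224 and 238 CPM in coLP iKO libraries, and at 241 and 125 CPM in CD25- PP iHET and 229 and 230 CPM in iKO libraries. The organs overlapped, and the CD25- PP iHET replicate 2 was the lowest of the 10 libraries. The log2 fold change of 0.42 (standard error, SE, 0.191, edgeR adjusted p = 0.153) did not pass the threshold, and its 95% interval ran from -0.0013 to 0.85. Without CD25- PP iHET replicate 1 it was 0.70 (adjusted p = 0.0272), without replicate 2 of that group 0.22 (adjusted p = 0.423) and within iKO libraries alone 0.082. Over 19 alternatives the adjusted p ran from 0.00545 to 0.682.

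The brakes of AhR showed no organ difference past the threshold. Ahrr was at 3.94 to 11.9 CPM in coLP (median 8.18) and 3.64 to 6.14 CPM in CD25- PP Tregs (median 4.64), with a log2 fold change of 0.76 (SE 0.336, adjusted p = 0.146). Tiparp was at 131 to 199 CPM in coLP (median 154) and 62.3 to 165 CPM in CD25- PP Tregs (median 147), with a log2 fold change of 0.31 (SE 0.212, adjusted p = 0.340). Its 62.3 CPM came from the same CD25- PP iHET replicate 2 in which Ahr was low. Without CD25- PP iHET replicate 1 the log2 fold change of Tiparp was 0.67 (adjusted p = 0.0221), and without replicate 2 of that group it was 0.064 (adjusted p = 0.824). Of its exon bases 223 also belong to 4931440P22Rik on the other strand, and 127 of those of Ahr to Gm48236. Counting did not use strand, and at its default settings a read that touches exons of both genes is counted for neither.

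Nqo1, a quinone reductase that AhR and NRF2 both induce, was at 4.37, 5.27 and 3.41 CPM in coLP iHET and 4.19, 9.73 and 40.1 CPM in coLP iKO libraries, and at 2.54 and 0.692 CPM in CD25- PP iHET and 1.34 and 0.619 CPM in iKO libraries. All colonic libraries were above all CD25- PP libraries, and coLP iKO replicate 3 stood far above the other colonic libraries. The log2 fold change was 2.78 (SE 0.663, adjusted p = 0.0184). It was 1.41 within iHET libraries (adjusted p = 0.255) and 4.13 within iKO libraries (adjusted p = 0.0677), and without coLP iKO replicate 3 it remained past the threshold. It did not pass without CD25- PP iHET replicate 2 (adjusted p = 0.0790), iKO replicate 1 (0.0517) or iKO replicate 2 (0.0855). Over 19 alternatives the adjusted p ran from 4.2e-20 to 0.255.

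Among the retinoid receptors, Rara had the lowest p of the 9 genes. It was at 166, 178 and 121 CPM in coLP iHET and 124, 148 and 103 CPM in coLP iKO libraries, and at 63.1 and 63.0 CPM in CD25- PP iHET and 63.1 and 54.7 CPM in iKO libraries. The log2 fold change was 1.19 (SE 0.142, adjusted p = 0.000742), and was 1.29 within iHET (adjusted p = 0.0344) and 1.07 within iKO libraries (adjusted p = 0.0244). Every one of 19 alternatives kept it past the threshold.

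Rxra, the common partner of RAR, VDR and PPAR, was at 45.1 to 51.4 CPM in coLP iHET and 39.8 to 52.1 CPM in coLP iKO libraries, against 25.8 and 26.5 CPM in CD25- PP iHET and 35.4 and 26.9 CPM in iKO libraries. The groups of the organs did not overlap, with a log2 fold change of 0.74 (SE 0.121, adjusted p = 0.00349). Within iKO libraries alone it was 0.57 (adjusted p = 0.117). Rarg was at 15.2 to 25.3 CPM in coLP and 16.6 to 31.8 CPM in CD25- PP Tregs, with a log2 fold change of -0.10 (SE 0.184, adjusted p = 0.746, interval -0.51 to 0.31).

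Vdr was the member that was lower in the colon. It was at 40.9, 43.6 and 39.4 CPM in coLP iHET and 39.3, 32.0 and 55.5 CPM in coLP iKO libraries, against 49.4 and 72.6 CPM in CD25- PP iHET and 63.5 and 105 CPM in iKO libraries. The libraries of the organs overlapped in 1 pair, coLP iKO replicate 3 lying above CD25- PP iHET replicate 1. The log2 fold change was -0.78 (SE 0.191, adjusted p = 0.0215). The call was lost without CD25- PP iHET replicate 2 (-0.63, adjusted p = 0.0984) or iKO replicate 2 (-0.58, adjusted p = 0.0996), within iHET libraries alone (-0.56, adjusted p = 0.195) and within iKO libraries alone (-1.01, adjusted p = 0.0817). Over 19 alternatives the adjusted p ran from 2.6e-06 to 0.195.

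Pparg differed most. It was at 4.87, 15.1 and 11.6 CPM in coLP iHET and 4.12, 14.9 and 26.03 CPM in coLP iKO libraries, against 0.550 and 1.31 CPM in CD25- PP iHET and 0.426 and 1.20 CPM in iKO libraries, which are 14 to 38 reads a library. The log2 fold change was 3.81 (SE 0.627, adjusted p = 0.00338), and it was 3.45 within iHET (adjusted p = 0.0480) and 4.16 within iKO libraries (adjusted p = 0.0431). Pparg passed the threshold under each of 19 alternatives, with log2 fold changes from 2.71 to 4.24.

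**Figure D2:**
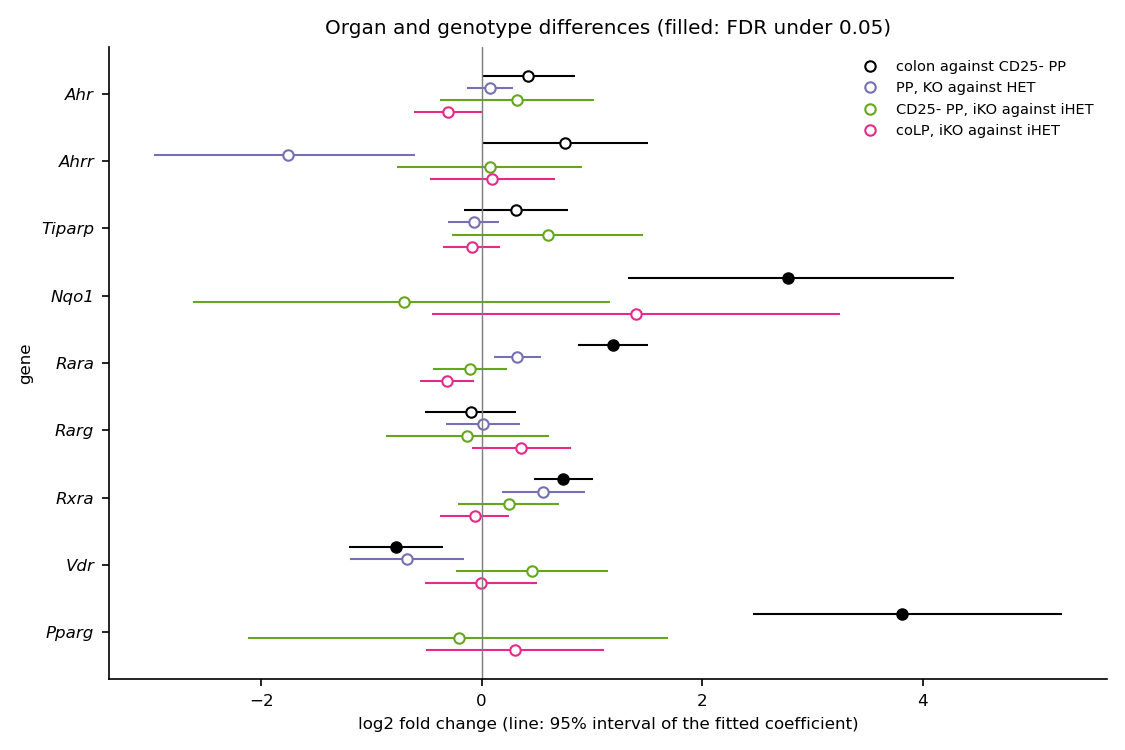
Log2 fold changes of the 9 genes (horizontal axis) between organs and between genotypes, with 95% intervals of the fitted coefficient; filled points have an FDR under 0.05. The 5 filled points all belong to the organ difference, and Nqo1 and Pparg have no point for PP Tregs because they did not pass the filter there.

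Epithelial transcripts moved with Nqo1 and Pparg across the colonic libraries. The 12 epithelial genes summed to 466, 1130 and 308 CPM in coLP iHET and 201, 964 and 2098 CPM in coLP iKO libraries, and coLP iKO replicate 3 was highest in that sum, in Nqo1 and in Pparg. Of the epithelial list 5 of 12 genes were higher in the colon and 0 lower, of the myeloid list 5 of 9 tested and of the stromal list 4 of 6 tested. Of all genes tested 10% were higher and 7.29% lower. Of the B and plasma cell list 2 of 7 tested were higher and 1 lower, and of the list of CD8 T cells and innate lymphocytes 0 of 5 tested were higher and 3 lower. When the 3 colonic libraries with most epithelial transcripts were left out, 3 of the 9 genes remained past the threshold, against 4.27% of all genes tested. These were Rara (1.13, adjusted p = 0.0127), Rxra (0.77, adjusted p = 0.0482) and Pparg (2.71, adjusted p = 0.0375), while Nqo1 was at 1.65 (adjusted p = 0.126) and Vdr at -0.85 (adjusted p = 0.0942), with the direction they had in all 10 libraries. The part of other cells in the levels of Nqo1 and Pparg was not tested.

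**Figure D3:**
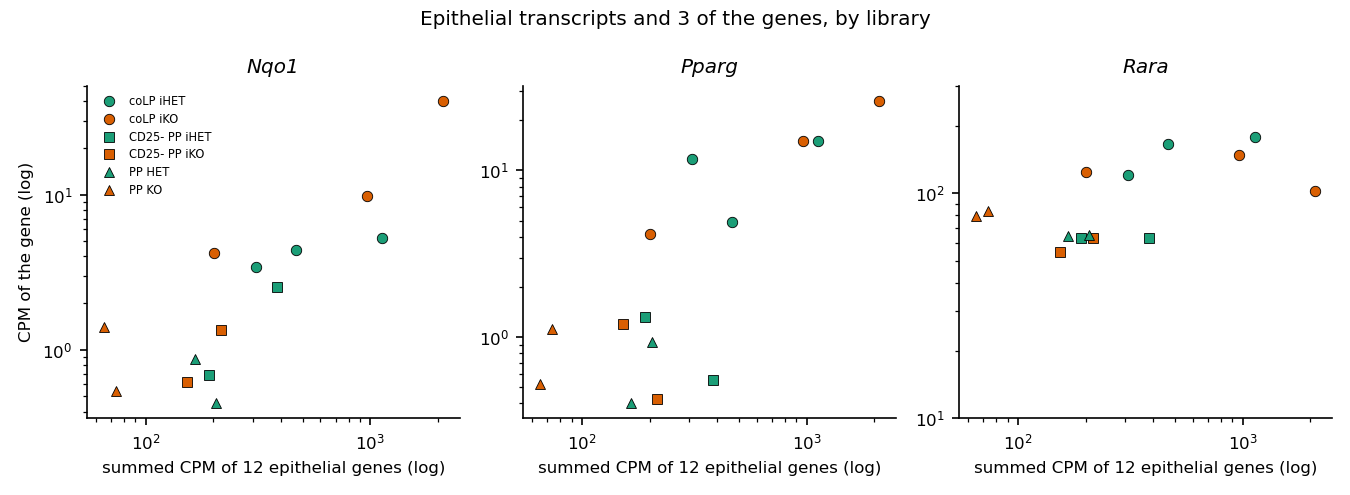
Nqo1, Pparg and Rara in CPM (vertical log axis) against the summed CPM of 12 epithelial genes (horizontal log axis), 1 point per library, with organ by symbol and genotype by colour. The library with the highest epithelial sum, coLP iKO replicate 3 at 2098 CPM, is also highest in Nqo1 and Pparg but lowest of the 6 colonic libraries in Rara.

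Some listed genes of the same pathways differed between organs, in both directions. Beside the counts of each list, 17.3% of all genes tested were called, 10% higher and 7.29% lower in the colon. Of 14 genes of the AhR complex and its targets, 12 were tested, 2 were higher and 1 was lower in the colon, with a median log2 fold change of 0.67. Gpr15, a colon-homing receptor, rose from 13.1 to 22.4 CPM in CD25- PP to 64.1 to 83.2 CPM in coLP Tregs (log2 fold change 2.03, SE 0.154, adjusted p = 7.2e-05). Lpcat2, an enzyme of phospholipid remodelling, was also higher (4.02, adjusted p = 0.00029), and Ugt1a6a, a glucuronosyltransferase, was lower (-2.05, adjusted p = 0.0261). The classical target Cyp1a1 was at 0 counts in the 3 coLP iHET libraries and reached at most 1.70 CPM in any library of the inducible line, and the receptor's partner Arnt was at 79.7 to 117 CPM in coLP and 84.0 to 100.1 CPM in CD25- PP Tregs (log2 fold change 0.12, adjusted p = 0.562).

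Nqo1 is shared with the NRF2 pathway, the response to oxidants. Of 15 NRF2 genes tested, 4 were higher in the colon and 0 lower, with a median of 0.32. Txnrd1, thioredoxin reductase, was at 187 to 242 CPM in coLP and 109 to 131 CPM in CD25- PP Tregs (log2 fold change 0.84, SE 0.106, adjusted p = 0.000998). The others were the sulfiredoxin gene Srxn1 (1.19, adjusted p = 0.0101) and the pentose phosphate genes G6pdx (0.49, adjusted p = 0.00884) and Tkt (0.39, adjusted p = 0.0372).

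Of 24 other genes of retinoid receptors, cofactors and metabolism, 18 were tested, 3 were higher and 2 lower in the colon, with a median of 0.12. Higher were Rxrg (3.45, adjusted p = 0.00255), the retinaldehyde dehydrogenase gene Aldh1a2 (2.94, adjusted p = 0.0180), both at 7.78 CPM or less in each library, and the corepressor gene Nrip1 (0.36, adjusted p = 0.0340). Aldh1a2 was at 5.59 and 7.78 CPM in coLP iKO replicates 1 and 2 and at 0.888 to 1.36 CPM in the other colonic libraries. Those replicates were also highest in the sum of stromal and endothelial genes, at 982 and 838 CPM. The part of other cells in Aldh1a2 was not tested. Lower was Cyp26b1, whose product breaks down retinoic acid (-2.84, adjusted p = 0.0207), at 12 counts or fewer in each coLP library, and Dhrs3, which returns retinaldehyde to retinol (-0.63, adjusted p = 0.0393).

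Genes that retinoic acid induces in T cells split. Of 10 listed and tested, 3 were higher and 4 lower in the colon, with a median of -0.38. The small intestine-homing receptor Ccr9 was at 19.6 to 49.2 CPM in coLP and 174 to 195 CPM in CD25- PP Tregs (-2.34, SE 0.163, adjusted p = 4.5e-05). The integrin gene Itgb7 (0.69, adjusted p = 0.000797) and Il10 (0.99, adjusted p = 0.00104) were higher.

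Of 12 genes of vitamin D metabolism and targets, 10 were tested, 2 were higher and 0 lower, with a median of 0.24. The 2 were Il10, also on the retinoic acid list, and the checkpoint gene Ctla4 (0.59, adjusted p = 0.00998). Cyp24a1, the classical VDR target, was at most at 1.07 CPM in any of the 14 libraries.

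Of 16 genes of the PPAR family, coactivators and targets, 15 were tested, 6 were higher and 0 lower, with a median of 0.81. Dgat2, an enzyme of triglyceride synthesis, was at 103 to 407 CPM in coLP and 6.12 to 37.2 CPM in CD25- PP Tregs (3.40, SE 0.521, adjusted p = 0.00247). The lipoprotein lipase gene Lpl (2.56, adjusted p = 0.0203) and the lipid droplet gene Plin2 (0.83, adjusted p = 0.0250) were also higher. Of 17 other nuclear receptors, 16 were tested, 7 were higher and 0 lower, with a median of 0.52, among them Rora (2.17, adjusted p = 6.5e-05), Nr1d1 (2.18, adjusted p = 0.000176) and the glucocorticoid receptor Nr3c1 (0.97, adjusted p = 0.000696).

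For each of the 9 genes, the 3 genes with the most similar log2 CPM over the 10 libraries of the inducible line were taken among 12094 genes with a mean of at least 4 CPM. These points come from both organs, are of like depth and share a sort gate in part, and the likeness (Pearson's r) is a description. Ahr was most like Gm13684, Prrt1 and Ttc39b (0.939 to 0.963), Ahrr most like Acbd3, Champ1 and Rnf220 (0.916 to 0.926), and Tiparp most like Ppp2r2d, Crem and A830012C17Rik (0.946 to 0.982). By rank (Spearman's rho) the likeness was 0.636 to 0.952 for Ahr and 0.685 to 0.806 for Tiparp. CD25- PP iHET replicate 2 was lowest in both genes, and its part in these values of r was not tested. Nqo1 was most like Tpd52, Mgst3 and Gipc2 (0.954 to 0.975), and Pparg most like Ctbp2, Rfk and 2610528A11Rik (0.967 to 0.984). The retinoid receptors were most like other genes each: Rara like Il4ra, F2rl2 and Sec61a1 (0.977 to 0.981), Rarg like Cul1, N6amt1 and Lrpprc (0.888 to 0.918) and Rxra like Osbpl9, Tpm3 and Gab3 (0.972 to 0.974). Vdr was most like Gpr89, Mavs and Btbd2 (0.953 to 0.982). No member was among the 3 genes most like another. Between members, r was highest for Rara with Rxra (0.94) and Nqo1 with Pparg (0.832). It was lowest for Vdr with Rara (-0.816) and with Rxra (-0.803).

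The comparison of KO with HET mice asks whether these genes differ when Junb is deleted. For PP Tregs of Foxp3-YFP-cre mice, the study attributes most of its changed genes to the loss of follicular Tregs. It also names ongoing inflammation as a likely confounder there. In PP Tregs of Foxp3-YFP-cre mice, 7 of the 9 genes passed the filter on low counts and 0 of the 7 passed the threshold, against 3.35% of 12224 genes. Nqo1 and Pparg were below the filter, at 0.452 to 1.41 CPM and 0.401 to 1.11 CPM. At an unadjusted p under 0.05 stood 4 of the 7, Ahrr, Rara, Rxra and Vdr, against 14% of all genes. The same 4 did not overlap between genotypes, as did 43.6% of all genes.

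Ahrr had 113 and 168 reads in HET libraries (3.65 and 6.12 CPM) and 58 and 20 reads in KO libraries (2.08 and 0.742 CPM). Both KO values were the lower, with a log2 fold change of -1.76 (SE 0.514, adjusted p = 0.132). The exact test of edgeR (adjusted p = 0.0290) and DESeq2's Wald test (adjusted p = 0.0316) called it, and over 11 alternatives the adjusted p ran from 0.000252 to 0.534. Ahr, at 269 and 306 CPM in HET libraries against 292 and 312 CPM in KO, had a log2 fold change of 0.07 (SE 0.0902, adjusted p = 0.830, interval -0.13 to 0.28). Tiparp had one of -0.07 (SE 0.0997, adjusted p = 0.855, interval -0.30 to 0.16).

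Rara was at 65.3 and 65.0 CPM in HET libraries against 83.8 and 79.3 CPM in KO (log2 fold change 0.32, SE 0.0912, adjusted p = 0.123). Rxra was at 22.7 and 18.4 CPM in HET libraries against 33.9 and 26.7 CPM in KO (0.56, SE 0.162, adjusted p = 0.133). Both were higher in each KO library without passing the threshold. Rarg was at 18.5 and 20.9 against 21.1 and 18.6 CPM (0.01, SE 0.145, adjusted p = 0.989, interval -0.32 to 0.34). Vdr was at 49.7 and 29.2 CPM in HET libraries against 26.2 and 23.2 CPM in KO (-0.67, SE 0.224, adjusted p = 0.195). Without PP HET replicate 1, its log2 fold change was -0.24, and without HET replicate 2 it was -1.01. Rxra (adjusted p = 0.00901) and Vdr (adjusted p = 0.000168) were called when no filter on low counts was applied, and Rara (adjusted p = 0.0380), Rxra (0.00675) and Vdr (0.00437) with the replicate number as a block.

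Other genes of the retinoid pathway did pass in PP Tregs, where 3.35% of all genes tested were called. Of 13 tested genes of receptors, cofactors and metabolism 2 rose and 1 fell in KO, and of 9 tested genes that retinoic acid induces 3 rose and 0 fell, with medians of 0.01 and 0.36 against 0.00298 over all genes. Stra6, a transporter of retinol, was at 5.17 and 4.48 CPM in HET libraries against 16.9 and 12.5 CPM in KO (1.60, SE 0.232, adjusted p = 0.0132). Dhrs3, on both lists, was at 136 and 141 against 215 and 195 CPM (0.56, SE 0.0818, adjusted p = 0.0132). Ccr9 was at 218 and 266 against 384 and 404 CPM (0.70, SE 0.105, adjusted p = 0.0138), and Tgm2, a transglutaminase, at 28.3 and 31.5 against 44.1 and 62.6 CPM (0.84, SE 0.168, adjusted p = 0.0390). These 4 genes were named because they rose past the threshold in the same libraries, so their KO libraries being the higher pair adds no support. Of all genes tested, 43.6% did not overlap between genotypes. Aldh1a1, a retinaldehyde dehydrogenase, fell, from 39 and 31 reads in HET to 0 and 2 reads in KO libraries (adjusted p = 0.0257).

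**Figure D4:**
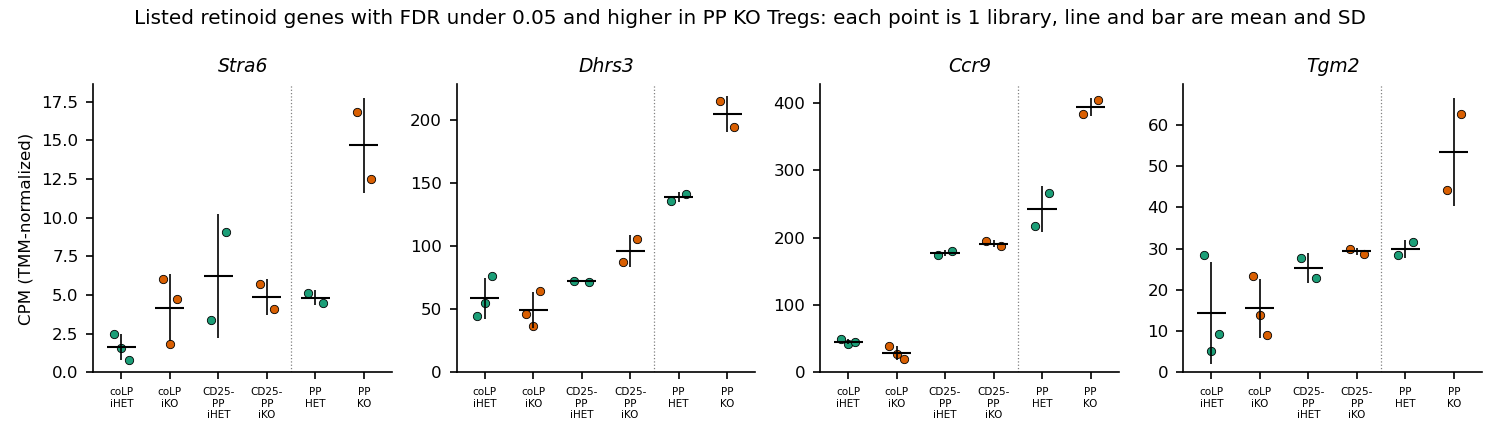
CPM (TMM-normalized, vertical axis from 0) of the 4 listed retinoid genes that rose in PP KO Tregs, by group, 1 point per library with the mean and SD. The PP KO pair lies above the PP HET pair for all 4 genes, which were picked for their rise in these libraries. Levels right and left of the dotted line come from tables that were normalized separately.

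In CD25- PP Tregs 7 days after the first tamoxifen, none of these 4 genes passed the threshold. By the same test 0% of 17079 genes passed there, so the lack of calls does not show a lack of change. The log2 fold changes were -0.35 for Stra6 (SE 0.488), 0.41 for Dhrs3 (SE 0.141), 0.10 for Ccr9 (SE 0.116) and 0.21 for Tgm2 (SE 0.172), each at an adjusted p of 0.999. In coLP Tregs they were 1.31, -0.25, -0.72 and 0.35 (adjusted p from 0.947 to 0.952), where 0.00613% of 16313 genes passed. Whether these changes differ from those of the Foxp3-YFP-cre line was not tested.

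In the other lists, PP KO Tregs were lower in Gpr15 (47.2 and 48.4 CPM in HET against 27.6 and 30.8 CPM in KO, log2 fold change -0.71, adjusted p = 0.0156), 1 of 8 tested AhR genes. They were lower in Srxn1 (-1.71, adjusted p = 0.0181) and the heme oxygenase gene Hmox1 (-0.88, adjusted p = 0.0284) of 14 tested NRF2 genes, and in Rora (-0.82, adjusted p = 0.0398) and Nr2f6 (-0.74, adjusted p = 0.0399) of 13 tested nuclear receptors. None of 6 tested vitamin D genes and none of 10 tested PPAR genes passed, beside 3.35% of all genes tested. Beside these values, the 12 epithelial genes summed to 206 and 166 CPM in HET libraries against 73.5 and 65.1 CPM in KO, where 9 of 11 tested were lower, and 6 genes of follicular Tregs to 1715 and 1492 CPM in HET libraries against 871 and 858 CPM in KO, where 5 of 6 were lower. The part of either in the values of the 9 genes was not tested. Nor was it tested for the listed genes called between PP KO and HET libraries, Aldh1a1, Stra6, Dhrs3, Ccr9 and Tgm2 among them.

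After inducible deletion no member changed past the threshold in either organ. In CD25- PP Tregs 0 of 9 passed, as did 0% of 17079 genes by edgeR's quasi-likelihood test, and 0 of 9 had an unadjusted p under 0.05 (3.62% of all genes). Junb itself, the deleted gene, missed the threshold in this test (log2 fold change -2.44, SE 0.173, adjusted p = 0.0940). A lack of calls there therefore does not show a lack of change. DESeq2 and the exact test called 0 of the 9 as well. The libraries did not overlap for 2 of the 9, Tiparp and Rxra, against 32.1% of all genes. Tiparp was at 145 and 62.3 CPM in iHET and 150 and 165 CPM in iKO libraries (log2 fold change 0.60, SE 0.358, adjusted p = 0.999, interval -0.27 to 1.47). Without the iHET replicate 1, which leaves the low replicate 2 as the control, it was 1.32 (adjusted p = 0.0241), and the lone library is then assumed to vary like the others. Without the iHET replicate 2 it was 0.11 (adjusted p = 1.00).

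The other 8 genes had log2 fold changes between -0.71 (Nqo1, SE 0.781) and 0.46 (Vdr, SE 0.285). The intervals were narrow for Rara, from -0.44 to 0.23, and wide for the low genes, from -2.61 to 1.17 for Nqo1 and -2.12 to 1.69 for Pparg.

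In coLP Tregs, fitted with the replicate number as a block, which the labels do not tie to a cage, 0 of 9 passed, against 0.00613% of 16313 genes (Junb alone). DESeq2 and the likelihood ratio test with the same block called 0 of the 9. At an unadjusted p under 0.05 stood 2 of the 9, Rara (log2 fold change -0.31, SE 0.0971, adjusted p = 0.947) and Ahr (-0.31, SE 0.123, adjusted p = 0.947), against 3.87% of all genes. The iHET and iKO libraries overlapped for these 2 genes, and without the block neither had an unadjusted p under 0.05 (Rara 0.142, Ahr 0.117, by edgeR). Rarg, at 20.1, 22.2 and 15.2 CPM in iHET and 23.5, 24.5 and 25.3 CPM in iKO libraries, was the 1 of 9 whose groups did not overlap, against 8.35% of all genes (0.36, SE 0.180, adjusted p = 0.947). Nqo1 had 1.40 (SE 0.738, adjusted p = 0.947), which fell to 0.42 when coLP iKO replicate 3 or the iHET library of the same number was left out.

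The difference of the genotype effect between organs passed the threshold for 0 of 9 genes and 0% of 18626 genes by edgeR's quasi-likelihood test. DESeq2 called 0 of the 9, and 1 of 9, Nqo1, had an unadjusted p under 0.05, against 3.34% of all genes (2.74, SE 1.23, adjusted p = 1.00). Without a filter on low counts Nqo1 was called (adjusted p = 0.000204). By genotype, the organ difference passed for 3 of 9 genes in iHET libraries (2.49% of all genes) and for 2 of 9 in iKO libraries (7.3%).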

How the data were processed

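Tregs were sorted, RNA was made into libraries with the SMARTer v4 kit, and reads were, per the labels and the methods of the study, trimmed with Trim Galore, aligned with STAR to mm10 (GRCm38), dropping reads with several matches, and assigned to GENCODE genes with featureCounts at default settings, which ignore strand. Only forward reads of the inducible line were used. The deposited values are these raw read counts per gene, without normalization or filter. The members and lists were chosen with earlier results of these data known.

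Symbols, positions and exon lengths came from GENCODE release 21 of the mouse, which named 55394 of 55487 and 53620 of 53801 IDs. Genes that reached 1 CPM in 2 or more libraries (3 for coLP) were tested with edgeR 4.0.16 in R 4.3.3 (TMM, prior count 1, quasi-likelihood test, FDR under 0.05 over all genes tested). The organ difference was fitted over 10 libraries as the mean of both genotypes, each genotype difference on its own libraries, that of coLP with the replicate number as a block in place of the cage, which the study used; the labels do not say that the number marks it. The study used the exact test in PP and a likelihood ratio test in coLP Tregs. These, DESeq2 1.42.0, other filters, size factors and prior counts, the replicate number as a block, single genotypes and leaving out each library were alternatives; leaving out the 3 colonic libraries highest in epithelial genes was chosen after seeing the data. On simulated data the quasi-likelihood test recovered most 4-fold changes, and the share of false calls exceeded the nominal rate except in the interaction. Depth was 26274861 to 35508709 counts, and floors cover counting error only, since the reads carry no molecular identifiers. RPKM are CPM per 1000 bases of merged exons. Promoters are from RefSeq; Ahr had no window. The genes named are the 9 members, Junb, of each list up to 4 genes with the lowest p among those called between organs and every gene called between genotypes, and the 3 genes most like each member; some genes that this rule names are not reported here. Arnt, Cyp1a1, Cyp24a1, Rarb, Esr1, Thrb, Nr1h2 and the members of marker lists were named after their values were seen. No replicates of a group were duplicates. Same-numbered libraries deviated together only weakly, with correlations of 0.0982 in PP, 0.101 in CD25- PP and 0.119, 0.277 and -0.0522 in coLP Tregs. In PP and CD25- PP Tregs, with 2 libraries a group, pairs of unlike number have the same values with the sign turned. Those values cannot decide whether the numbers pair. For coLP Tregs the study reports that samples clustered by cage more than by genotype.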

Additional observations from a re-analysis of the deposited data

Results flagged for a closer look

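Dixon's test of the highest and lowest library was run for each of the 9 genes over the 6 coLP, the 4 CD25- PP and the 4 PP libraries, both genotypes together, and 5 of 27 sets held a library past the 95% limit; chance flags about 1 in 20. Ahr was highest in coLP iHET replicate 1, at 397 CPM, and lowest of the CD25- PP libraries in iHET replicate 2, at 125 CPM. Nqo1 stood at 40.1 CPM in coLP iKO replicate 3, the library with most epithelial transcripts. Among the CD25- PP libraries Rara was lowest in iKO replicate 2, at 54.7 CPM, a set whose other 3 values lie between 63.0 and 63.1 CPM, and Rxra was highest in iKO replicate 1, at 35.4 CPM.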

How the results depend on the processing

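Counts of called genes moved by over 1.5 times as follows; the cause was not tested. The organ count of 3227 was 430 in iHET and 1267 in iKO libraries alone, 767 without the 3 colonic libraries highest in epithelial genes, and 1581 to 3959 with 1 library left out. The 409 genes of PP Tregs became 1305 without a filter, 696 with DESeq2, 689 with the exact test and 36 to 390 with 1 library left out. For CD25- PP Tregs 0 became 232 without a filter, 1 with at least 10 counts in every library, 35 with DESeq2, 43 with the exact test, 1 in the fit of 10 libraries and 2 to 77 with 1 library left out. For coLP Tregs 1 became 24 without a filter, 50 with DESeq2, 25 with the likelihood ratio test and 0 to 5 with 1 library left out, and for the interaction 0 became 282 without a filter and 2 with DESeq2.

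The numbers of PP libraries were not shown to pair mice, and with the replicate block 1015 genes were called, among them Ahrr, Rara, Rxra and Vdr; in CD25- PP Tregs 0 were, and in the organ difference 2362, where Nqo1 (adjusted p = 0.0623) was lost and Ahrr (adjusted p = 0.0207) gained. In coLP Tregs 1 gene was called with and without it. In the inducible line the number also marks the sex.

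Directions turned only for differences that were not called. Tiparp (-0.053) and Rarg (0.12) turned between organs in iKO libraries alone, Vdr in coLP Tregs without the block (0.028) and in the fit of 10 libraries (0.033), and Ahrr in the interaction with the replicate block (0.080). With 1 library left out the log2 fold changes ran from -0.30 to 0.17 for Rarg between organs; in PP from -0.022 to 0.17 for Ahr, -0.084 to 0.097 for Rarg and -0.21 to 0.064 for Tiparp; in CD25- PP from -0.083 to 0.86 for Ahr, -0.36 to 0.40 for Ahrr, -0.53 to 0.41 for Rarg and -0.69 to 0.34 for Pparg; in coLP from -0.25 to 0.21 for Vdr, -0.035 to 0.20 for Ahrr, -0.14 to 0.0027 for Rxra and -0.12 to 0.57 for Pparg; and in the interaction from -0.38 to 0.38 for Ahrr, -0.069 to 0.87 for Rarg and -0.0094 to 1.59 for Pparg. Of 622 values of members under an alternative, 562 kept direction and side of the threshold, 17 passed it newly, 13 no longer did and 30 turned. In PP Tregs Nqo1 and Pparg, at 11 to 38 reads a library, had log2 fold changes of 0.54 and 0.28 without a filter (adjusted p = 0.839 and 0.907).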

Other observations

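Rarb, the retinoic acid receptor gene that is itself a textbook target of retinoic acid, was at 5.26 to 9.91 CPM in all 10 libraries of the inducible line, from 152 to 308 reads. In the 4 libraries of Foxp3-YFP-cre mice it had 0 reads in 3 libraries and 1 read in the other. Rarb was not alone in this. Esr1 was at 22.9 to 37.7 CPM in the inducible line and at 0.111 to 1.29 CPM in Foxp3-YFP-cre mice. Thrb was at 6.69 to 10.4 and 0.452 to 0.927 CPM, while Nr1h2 was at 161 to 208 and 196 to 220 CPM. The lines, tamoxifen, sort gates and sequencers differ between these tables, so their parts cannot be told apart. Only the inducible line carries the cre-ERT2 fusion. Whether reads of that fusion were counted as Esr1 was not tested.

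CD25- PP Tregs were sorted for lack of CD25, yet Il2ra, which encodes it, was at 185 to 239 CPM there, against 561 to 752 CPM in coLP Tregs, which were not gated on CD25. Between HET and KO PP Tregs Cyp26b1, which breaks down retinoic acid, was at 7.33 and 10.2 against 23.1 and 12.5 CPM (log2 fold change 1.02, SE 0.304, edgeR adjusted p = 0.146), higher in both KO libraries without passing the threshold. In CD25- PP Tregs it was at 2.48 and 1.00 CPM in iHET and 3.25 and 0.401 CPM in iKO libraries.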
